A study of Mus musculus with 5 samples.

Results

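The mouse genes whose symbols begin with Hsp or Dnaj encode the heat shock proteins and the J-domain proteins, and 72 of the 56324 rows of the deposited table were taken for them. They are 27 Hsp genes and 45 Dnaj genes, chosen by symbol alone. Hspg2, which encodes the basement membrane proteoglycan perlecan, was left out, as were rows with several symbols and pseudogene names. Polyadenylated RNA was sequenced with a stranded library kit from C57Bl/6 males aged 12 weeks. There were 3 samples of spermatids, the haploid cells that are remodelled into sperm, and 2 samples of spermatocytes, the cells in meiosis. Both came from sedimentation at unit gravity (Sta-put), a separation mostly by cell size with no marker sort, and the labels give no genotype or agent that sets the groups apart. They also do not say that each sample was a separate animal, so the p-values below describe the spread among these 5 samples, which may be technical.

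Chaperones of the HSP70 family bind unfolded stretches of other proteins and release them in a cycle driven by ATP. J-domain proteins, sorted into the DNAJA, DNAJB and DNAJC classes by their domains, bring clients to HSP70 and trigger the ATP hydrolysis, and HSP110 proteins exchange the nucleotide afterwards. HSP90 proteins act later in folding, small heat shock proteins hold clients without ATP, and the chaperonin folds proteins inside mitochondria. Male germ cells are known for HSP70 and J-protein genes that other tissues barely use, among them Hspa2, Hspa1l, Dnajb3 and Dnajb13.

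Values are the deposited counts per gene divided by the authors' size factor for each library, called normalized counts here, and the libraries held 52784231 to 84361908 recovered reads. A gene was tested when its mean over the 5 samples was at least 10, with limma on log2(value + 1), and it passed at a Benjamini-Hochberg adjusted p under 0.05. Log2 fold changes are spermatids over spermatocytes on that scale, and the ± beside them is the standard error. Of the spermatid markers with a row 9 of 9 were higher in spermatids, whereas of 10 spermatocyte markers 5 were lower and 2 higher there. The spermatocyte markers had summed normalized counts of 35880 to 46372 in spermatids and of 79294 and 72301 in spermatocytes. Of 12 spermatogonia markers 5 were higher and 4 lower in spermatids. Their sums were 2971 to 3571 in spermatids and 5912 and 6189 in spermatocytes. Sertoli cell markers moved with the groups, 12 of 13 being lower in spermatids. Their summed normalized count was 2152 to 2691 in spermatids and 59223 and 78078 in spermatocytes. All 7 Leydig cell markers with a row were lower in spermatids, with sums of 135 to 339 in spermatids and of 2793 and 3534 in spermatocytes. Of 13 myoid, endothelial, macrophage and blood markers 8 were higher in spermatids, with sums of 3505 to 4288 in spermatids and of 1036 and 945 in spermatocytes, and Hba-a1 was the only marker of the lists with a row to be at 0 in any library. The part of these other cells in the results was not tested, and in bulk RNA fewer cells of a type and less RNA per cell cannot be told apart.

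Of the 72 genes 71 were tested, and 35 were higher and 15 lower in spermatids, while 21 did not pass. The background is broad, since 40.6% of all 28370 tested genes were higher and 36.5% lower, 77.1% in all. The chaperone genes had 49.3% higher and 21.1% lower, and their median log2 fold change was 0.35, against 0.07 over all tested genes. Changes of at least 2-fold were found for 21 members upward and 6 downward, shares of 29.6% and 8.45%, where all tested genes had 33.2% and 28.7%. Changes of at least 32-fold were found for 5 members upward, against a background of 9.58%, and for 0 downward, against 1.52%. The samples of the groups did not overlap for 42 members that were higher, with a background of 44.3%, and for 20 that were lower, with a background of 41.5%. By class, 24 Dnaj genes were higher and 8 lower of 45 tested, and 11 Hsp genes were higher and 7 lower of 26. Hspb2, which encodes a small heat shock protein best known from muscle, was under the filter at 1.55, 5.95 and 5.24 in spermatids and 3.23 and 1.34 in spermatocytes.

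**Figure D1:**
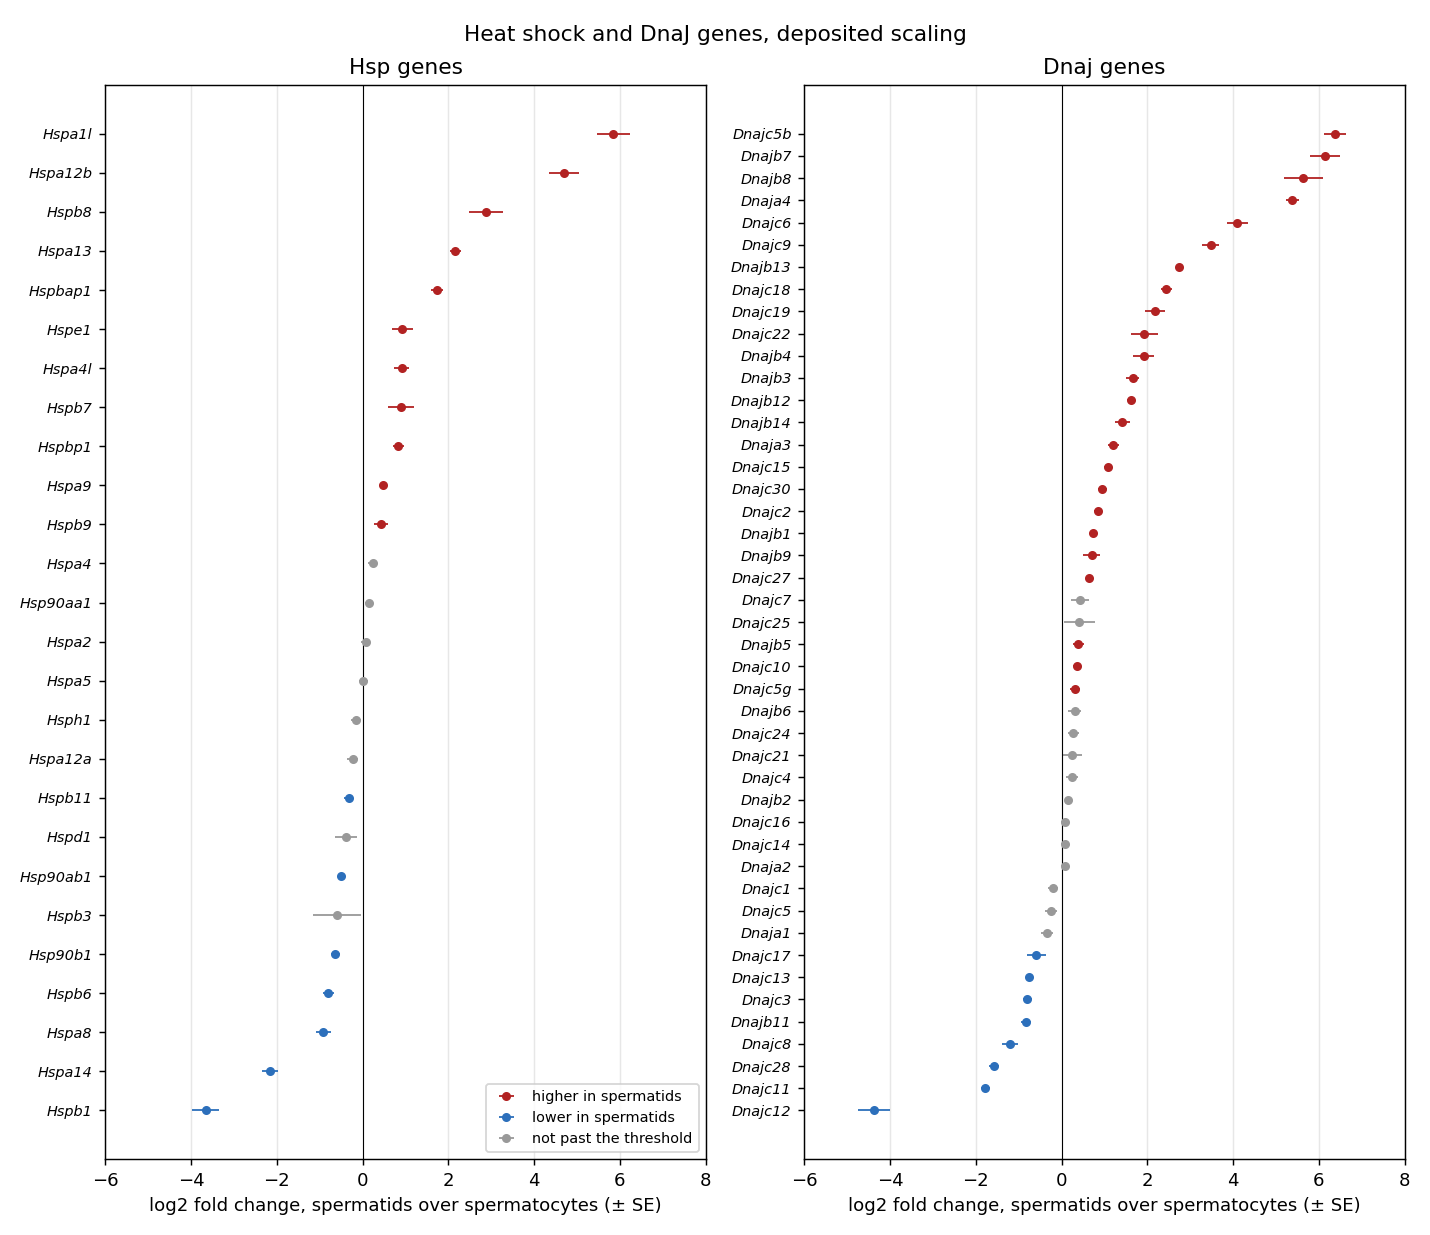
Log2 fold change of normalized counts, spermatids over spermatocytes, for the 26 tested Hsp genes (left) and the 45 tested Dnaj genes (right), with bars of ± 1 standard error. Red marks genes higher in spermatids, blue genes lower and grey genes not past the adjusted p threshold. The points run from -4.38 for Dnajc12 to 6.38 for Dnajc5b, and 5 genes lie above 5.

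Among HSP70 genes 4 of 9 rose (44.4%), 2 fell (22.2%) and 3 did not pass, while of all tested genes 40.6% rose and 36.5% fell. Hspa1l, a member of this family expressed mainly in the testis, had normalized counts of 88884, 36769.9 and 34753 in spermatids 1, 2 and 3, against 889.7 and 795 in spermatocytes 1 and 2. The samples of the groups were far apart, although spermatid 1 stood well above the other two. It rose by 5.85 ± 0.39 on the log2 scale (limma adjusted p = 1.7e-05), and by 5.41 without spermatid 1. Its row overlaps that of Gm10501, which was at 44341, 18765 and 17329 in spermatids and at 427 and 373 in spermatocytes. Because the strand setting of the counting is not given, reads of both loci cannot be told apart.

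Hspa2, the other HSP70 gene enriched in the testis and needed in mouse for spermatocytes to leave meiotic prophase, was at 170038, 187749.5 and 182312 in spermatids, against 179804 and 163627 in spermatocytes. The groups overlapped, and the difference did not pass the test (log2 fold change 0.07 ± 0.10, limma adjusted p = 0.53). With each library rescaled to the same total it was lower in spermatids, at -0.58. Hspa8, the constitutive cytosolic HSP70, was at 1115, 1438 and 999.8 in spermatids and 2055 and 2379 in spermatocytes, and it fell (log2 fold change -0.92 ± 0.17, limma adjusted p = 0.0024). Its level is uncertain, since 8 other loci match its transcript at 90% identity or more. Hspa14, an HSP70 bound to ribosomes, was at 271, 374 and 256 in spermatids, against 1342 and 1306 in spermatocytes. All spermatid samples lay below both spermatocyte samples, and the gene fell (log2 fold change -2.16 ± 0.19, limma adjusted p = 5.9e-05). Dnajc2, the J protein that forms the ribosome-associated complex with it, was at 10927, 9657 and 9247 in spermatids and 5598 and 5431 in spermatocytes and rose (log2 fold change 0.85 ± 0.10, limma adjusted p = 0.00025), although with equal library totals its value was 0.20 and missed the threshold. On the deposited scaling the partners passed in opposite directions. Dnajc2 has 1 near-identical copy elsewhere, and its row overlaps Pmpcb, at 14692, 14135 and 12759 in spermatids and 12762 and 11692 in spermatocytes, so its level is uncertain.

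A pair of distant HSP70 relatives differed in the test. Hspa12b, best known from endothelial cells, was at 474, 413 and 368 in spermatids, against 22.6 and 10.1 in spermatocytes, and rose (log2 fold change 4.69 ± 0.35, limma adjusted p = 2.8e-05). Hspa12a was at 394, 373 and 374 in spermatids and 433 and 459 in spermatocytes and did not pass (log2 fold change -0.23 ± 0.13, limma adjusted p = 0.16). The row of Hspa12a overlaps Eno4, at 7217, 7855 and 8025 in spermatids and 4170 and 4001 in spermatocytes, so its level is uncertain. Of the endothelial markers, Kdr was at 412, 466 and 526 in spermatids and 45.2 and 34.9 in spermatocytes, the same order as Hspa12b. Pecam1 was at 51.2, 48.6 and 59.7 in spermatids and 127 and 89.9 in spermatocytes, the opposite order, and Cdh5 was at 97.7, 148 and 144 in spermatids and 96.9 and 104 in spermatocytes. The part of endothelial RNA in the rise of Hspa12b was not tested.

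Of the 3 HSP110 genes, whose products recharge HSP70 with nucleotide, 1 rose and 2 did not pass. Over all tested genes 40.6% rose and 36.5% fell. Hspa4l, which male mice need for normal sperm, was at 133105, 96616 and 92299 in spermatids, against 59084 and 53631 in spermatocytes, and rose (log2 fold change 0.91 ± 0.17, limma adjusted p = 0.0021). Its relative Hspa4 was at 45478, 38552 and 38601 in spermatids and 36001 and 33300.2 in spermatocytes and did not pass (log2 fold change 0.24 ± 0.11, limma adjusted p = 0.081), with a value of -0.41 under equal library totals. The stress-inducible Hsph1 was at 4468, 4086 and 3676 in spermatids and 4748 and 4302 in spermatocytes, and the groups overlapped (log2 fold change -0.15 ± 0.11, limma adjusted p = 0.25). Both genes named for binding heat shock proteins rose. Hspbp1, another exchange factor of HSP70, was at 2691, 2986 and 3396 in spermatids and 1739 and 1634 in spermatocytes (log2 fold change 0.84 ± 0.12, limma adjusted p = 0.00073), with values of 0.19 under equal library totals and 0.31 after quantile normalization, past the threshold in neither. Hspbap1, named for binding a small heat shock protein, was at 2214, 2599.7 and 2299 in spermatids and 777 and 648 in spermatocytes (log2 fold change 1.74 ± 0.13, limma adjusted p = 2.8e-05).

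Neither cytosolic HSP90 gene rose. Hsp90aa1, the inducible form, was at 28000.2, 25964 and 27211 in spermatids and 24510.3 and 24370.2 in spermatocytes and did not pass (log2 fold change 0.15 ± 0.08, limma adjusted p = 0.14), with a value of -0.50 under equal library totals. Hsp90ab1, the constitutive form, was at 13772, 14962 and 14145 in spermatids, against 19906 and 20311 in spermatocytes, and fell (log2 fold change -0.49 ± 0.08, limma adjusted p = 0.0013). Near-identical copies of these genes elsewhere in the genome, 2 for Hsp90aa1 and 1 for Hsp90ab1, make their levels uncertain.

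Small heat shock genes split evenly, with 3 higher and 3 lower of 7 tested (42.9% each), against 40.6% and 36.5% of all tested genes. Hspb9, a gene of the testis and the most abundant of them, was at 65715, 48913 and 46216 in spermatids, against 41599 and 37107 in spermatocytes. Its rise on the deposited scaling was small (log2 fold change 0.43 ± 0.16, limma adjusted p = 0.045) and turned to -0.22 with equal library totals, and without spermatocyte 2 it was 0.35 and missed the threshold (limma adjusted p = 0.24). Hspb7, known from heart muscle, was at 4559.7, 2935 and 5672 in spermatids and 1776 and 2917 in spermatocytes, so the groups nearly touched (log2 fold change 0.89 ± 0.31, limma adjusted p = 0.035). Its call was lost without spermatocyte 1, at 0.54 (limma adjusted p = 0.24), and without spermatid 1 or 3. Hspb8, a partner of the co-chaperone Bag3, was low throughout, at 43.4, 30.7 and 54.5 in spermatids and 4.31 and 5.36 in spermatocytes, and rose (log2 fold change 2.88 ± 0.39, limma adjusted p = 0.00048).

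Hspb1, which encodes the stress protein HSP27, had the largest fall of the Hsp genes. It was at 88.4, 57.5 and 45.1 in spermatids, against 681 and 906 in spermatocytes (log2 fold change -3.66 ± 0.31, limma adjusted p = 5.3e-05). Its near-identical copy Gm9817 makes the level uncertain. Hspb6 was at 3098, 2489 and 2513 in spermatids and 4751 and 4584 in spermatocytes and fell (log2 fold change -0.80 ± 0.12, limma adjusted p = 0.00092). Hspb11, also called Ift25 for its place in intraflagellar transport, was at 905, 933 and 858 in spermatids and 1108 and 1136 in spermatocytes (log2 fold change -0.32 ± 0.11, limma adjusted p = 0.03). That small fall lost its call when either spermatocyte sample or spermatid 3 was left out, with adjusted p up to 0.13 in limma. Hspb3, a muscle gene, was at 14, 11.9 and 18.9 in spermatids and 42.0 and 12.1 in spermatocytes (log2 fold change -0.60 ± 0.57, limma adjusted p = 0.36), and 1 library decided its call, which was past the threshold at -1.46 without spermatocyte 2. Of the 15 members that fell, Hspb1, Hspa8, Hsp90ab1, Hspb11 and Dnajc17 were higher in spermatocyte 2 than in spermatocyte 1, as were 12 of 13 Sertoli cell markers. The other 10 were higher in spermatocyte 1, as were 54.7% of all tested genes. The part of Sertoli RNA in the falls was not tested.

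**Figure D2:**
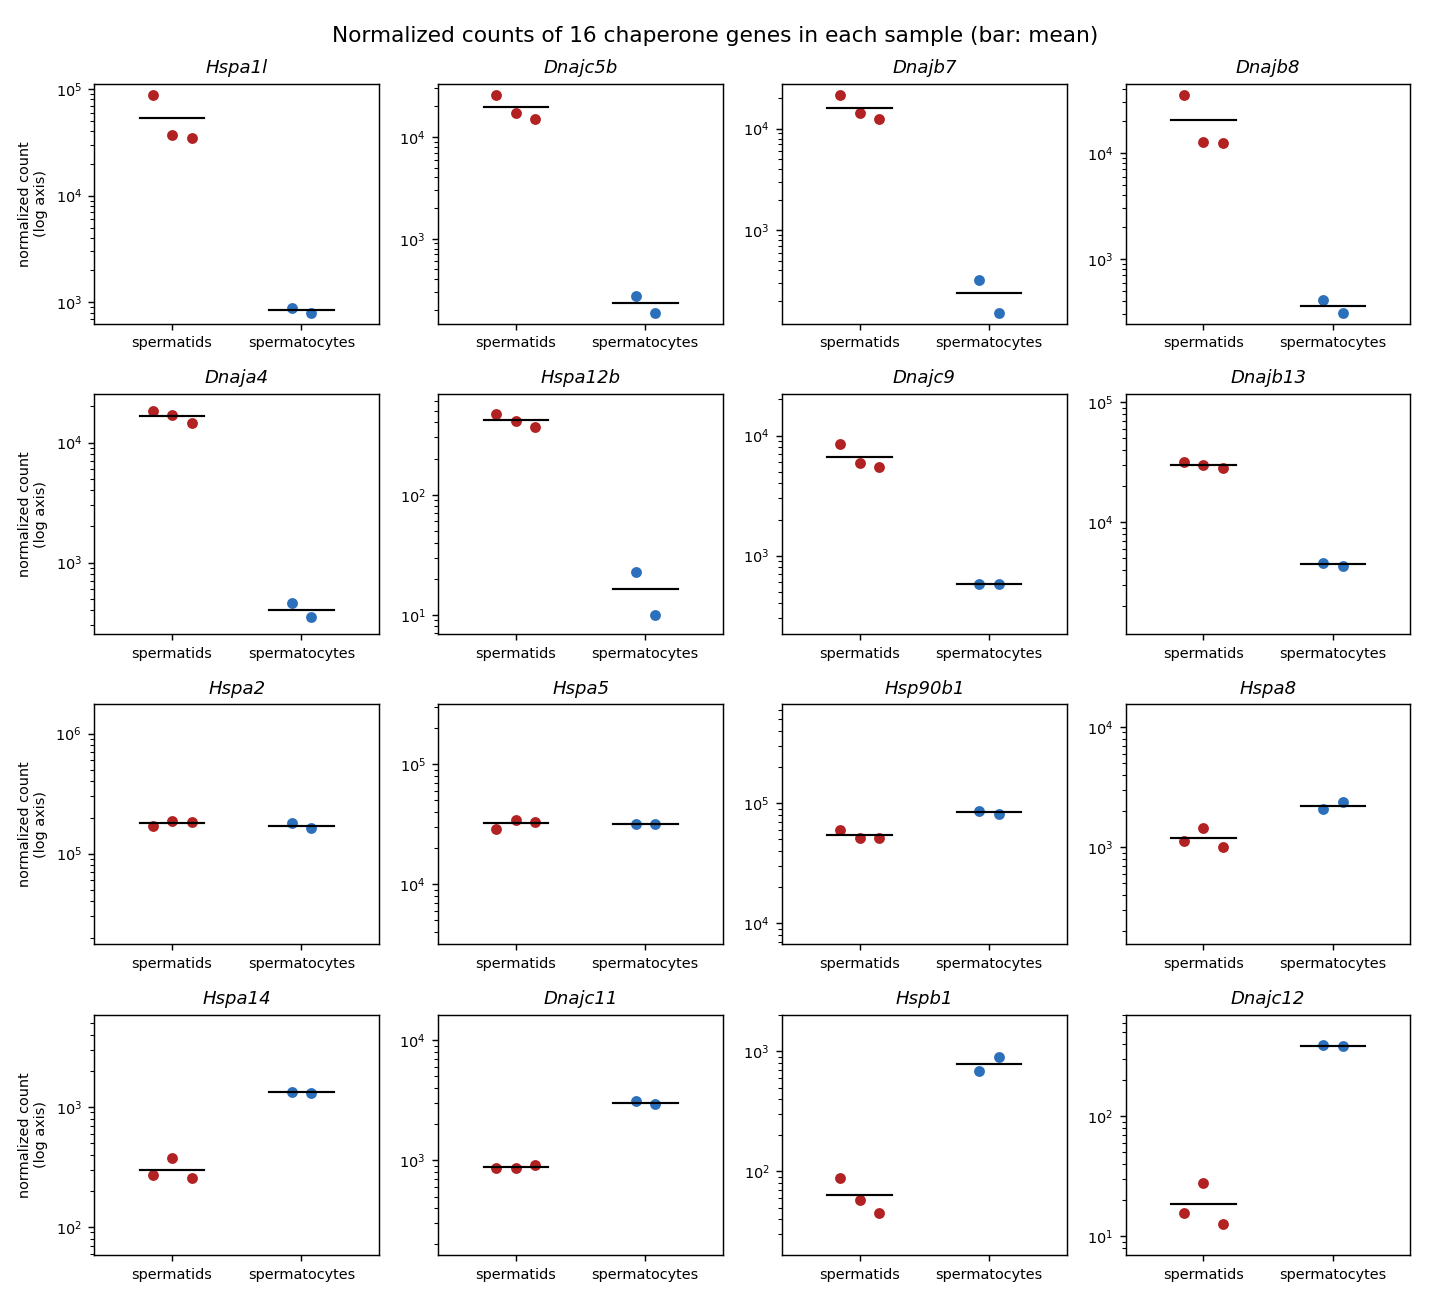
Normalized counts of 16 chaperone genes in each sample, on log axes that differ between panels, with spermatids (red, 3 samples) left of spermatocytes (blue, 2 samples) and a bar at each mean. The groups are apart in every panel but those of Hspa2 and Hspa5. Spermatid 1 is the highest point for Hspa1l, Dnajc5b, Dnajb7, Dnajb8, Dnaja4, Hspa12b, Dnajc9 and Dnajb13, and it lies furthest above the other spermatids for Hspa1l and Dnajb8.

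Dnaj genes, 45 of the 71 tested, held 4 of the 5 rises of at least 32-fold, a size reached by 9.58% of all tested genes. Rises of at least 2-fold were found for 16 of them (35.6%), against 33.2% of all tested genes. Dnajc5b, a testis form of the cysteine string protein, had normalized counts of 26107, 17270.0 and 15146 in spermatids, against 277 and 187 in spermatocytes. It rose by 6.38 ± 0.26 on the log2 scale (limma adjusted p = 1.9e-06), the largest log2 fold change of the 71. Its relatives in the same class moved less. Dnajc5g, the gamma form, was at 5516, 4641 and 4476 in spermatids and 3989.7 and 3787 in spermatocytes, a rise on the deposited scaling (log2 fold change 0.32 ± 0.12, limma adjusted p = 0.039) that turned to -0.32 with equal library totals and lost its call without either spermatocyte sample, at 0.28 (limma adjusted p = 0.19) without the second. Dnajc5, the form found on synaptic vesicles, was at 371, 361 and 367 in spermatids and 419 and 449 in spermatocytes and did not pass (log2 fold change -0.24 ± 0.13, limma adjusted p = 0.14).

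Of the J-protein classes DNAJB had the highest share of rises, 10 of 13 (76.9%), with 1 fall (7.69%) and a median log2 fold change of 1.41. Among all tested genes 40.6% rose and 36.5% fell, with a median of 0.07. With equal library totals 7 of the class rose and 3 fell, where all tested genes had 30.5% and 49.4%. Dnajb7 was at 21709, 14269.9 and 12517 in spermatids, against 324 and 153 in spermatocytes, and rose by 6.13 ± 0.35 on the log2 scale (limma adjusted p = 8.3e-06). Dnajb8, whose product suppresses the aggregation of polyglutamine proteins, was at 35563, 12753 and 12478 in spermatids, against 411 and 311 in spermatocytes, and rose by 5.63 ± 0.45 on the log2 scale (limma adjusted p = 3.9e-05). Spermatid 1 lay far above the other spermatid samples for this gene, and without it the rise was 5.14. Its row overlaps 1700031F10Rik, which was at 9927, 4268 and 4542 in spermatids and at 126 and 104 in spermatocytes. Dnajb3, the J protein first described in mouse spermatids, was the most abundant Dnaj gene. It was at 109883, 85085 and 78422 in spermatids, against 30080.2 and 27328 in spermatocytes, and rose (log2 fold change 1.65 ± 0.15, limma adjusted p = 7.5e-05).

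Dnajb13, a J protein of the radial spokes of the sperm tail, was at 31544, 29913 and 28314 in spermatids, against 4581 and 4346 in spermatocytes. Its 3 spermatid samples lay close together, and the gene rose (log2 fold change 2.74 ± 0.09, limma adjusted p = 7.9e-07). Dnajb4 was at 22862, 13407 and 12989 in spermatids, against 4368 and 4046 in spermatocytes, and rose (log2 fold change 1.91 ± 0.24, limma adjusted p = 0.00035). Dnajb1, the classic HSP40 that works with cytosolic HSP70, was at 23941, 24271 and 24881 in spermatids, against 15182 and 14151 in spermatocytes. That rise (log2 fold change 0.73 ± 0.08, limma adjusted p = 0.00018) was 0.09 with equal library totals and -0.03 after quantile normalization, and it did not pass there. Dnajb2, a form studied mostly in neurons, was at 28664, 27840.1 and 27059 in spermatids and 25852 and 24207 in spermatocytes and did not pass (log2 fold change 0.15 ± 0.08, limma adjusted p = 0.13), with a value of -0.49 under equal library totals.

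In the DNAJA class, whose members resemble bacterial DnaJ along their whole length, 2 of 4 genes rose and 0 fell. Among all tested genes 40.6% rose and 36.5% fell. Dnaja4 was at 18414, 17044 and 14654 in spermatids, against 457 and 350.0 in spermatocytes, and rose by 5.37 ± 0.15 on the log2 scale (limma adjusted p = 5.6e-07). Dnaja2, the most abundant member of the class in spermatocytes, was at 12164, 11592 and 10913 in spermatids and 11362 and 10647 in spermatocytes, with overlapping groups (log2 fold change 0.07 ± 0.09, limma adjusted p = 0.5). Dnaja1 was at 989, 831 and 886 in spermatids and 1225 and 1055 in spermatocytes and narrowly missed the threshold (log2 fold change -0.34 ± 0.13, limma adjusted p = 0.051), while without spermatid 1 it passed as lower, at -0.41 (limma adjusted p = 0.02). Its row overlaps Smu1, at 4309 to 4729 in spermatids and 5088 and 4730 in spermatocytes. It also overlaps Gm6297, at 479 to 614 in spermatids and 1056 and 947 in spermatocytes, so the level of Dnaja1 is uncertain. The rows that overlap Dnaja4, Dnajb3, Dnajb7, Dnajb13 and Dnajc5b were at most 1278 in any spermatid sample, far below these genes there. In spermatocytes Wdr61, which overlaps Dnaja4, was at 2042 and 1784 and so above it. Xpnpep3, which overlaps Dnajb7, was at 289 and 292 there, and 1700064H15Rik, which overlaps Dnajc5b, was at 204 and 217, both above the member in spermatocyte 2. The part of these neighbours in the low spermatocyte counts was not tested.

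Several DNAJC genes known for work outside general folding also rose. Dnajc6, which encodes auxilin, the protein that strips clathrin from vesicles, was at 386, 386 and 315 in spermatids, against 17.2 and 23.5 in spermatocytes (log2 fold change 4.10 ± 0.24, limma adjusted p = 9e-06). Dnajc9, a co-chaperone of histones H3 and H4, was at 8495, 5870.3 and 5469.6 in spermatids, against 581 and 583 in spermatocytes (log2 fold change 3.48 ± 0.19, limma adjusted p = 7e-06). Both genes were separated between the groups in every sample. Dnajc18 was at 16782, 14365 and 12731 in spermatids, against 2782 and 2564 in spermatocytes (log2 fold change 2.44 ± 0.13, limma adjusted p = 6e-06).

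The falls among DNAJC genes covered other roles. Dnajc12, a co-chaperone of the aromatic amino acid hydroxylases, was at 15.5, 27.8 and 12.6 in spermatids, against 389.9 and 383 in spermatocytes. It had the largest fall of the 71 (log2 fold change -4.38 ± 0.37, limma adjusted p = 5e-05). Dnajc28 was at 3379.9, 2728 and 2874 in spermatids, against 8865 and 8846 in spermatocytes (log2 fold change -1.57 ± 0.11, limma adjusted p = 2.5e-05). Dnajc8, a protein of the spliceosome, was at 902, 836 and 631 in spermatids and 2025 and 1606 in spermatocytes (log2 fold change -1.21 ± 0.19, limma adjusted p = 0.00096). Dnajc17, linked to splicing as well, was lower by a margin close to the threshold, with 132, 136 and 97.5 in spermatids and 179.9 and 183 in spermatocytes (log2 fold change -0.59 ± 0.23, limma adjusted p = 0.048), and lost its call under several settings, such as -0.44 without spermatid 3 (limma adjusted p = 0.11). Dnajc13, an endosome protein, was at 2411, 2503 and 2519 in spermatids and 4209 and 4132 in spermatocytes (log2 fold change -0.75 ± 0.09, limma adjusted p = 0.00022). Dnajc8 and Dnajc17 each have 1 near-identical copy elsewhere, which leaves their levels uncertain, and Dnajc17 also overlaps Zfyve19, at 1827 to 2361 in spermatids and 1928 and 1995 in spermatocytes.

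Chaperones of the lumen of the endoplasmic reticulum formed a group of 8 genes, drawn up from general knowledge after their values had been seen and so described without a test. Of these, 3 rose (37.5%), 3 fell (37.5%) and 2 did not pass on the deposited scaling, and 1 rose and 6 fell with equal library totals. All tested genes had 40.6% and 36.5% as deposited, and 30.5% and 49.4% with equal library totals. Hspa5, which encodes the HSP70 of this compartment (BiP), was at 28727, 34322 and 33034 in spermatids and 31894 and 31374 in spermatocytes. The groups overlapped (log2 fold change 0.01 ± 0.10, limma adjusted p = 0.91), and with equal library totals its value was -0.63. Hsp90b1, the HSP90 of the compartment, was at 59591, 51684 and 51763 in spermatids, against 86174 and 82008 in spermatocytes, and fell (log2 fold change -0.63 ± 0.10, limma adjusted p = 0.00098). Dnajc3, a J protein of BiP also known as an inhibitor of the kinase Perk, was at 2264, 2472 and 2116 in spermatids, against 4169 and 3788 in spermatocytes, and fell (log2 fold change -0.80 ± 0.11, limma adjusted p = 0.00047). Dnajb11, another J protein of BiP, was at 4347, 5003 and 3980.4 in spermatids, against 8300.4 and 7494 in spermatocytes, and fell (log2 fold change -0.83 ± 0.12, limma adjusted p = 0.00067).

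The other members of that compartment went the other way or did not pass. Hspa13, an HSP70-like ATPase of microsomes, was at 1588, 1905 and 1818 in spermatids, against 392 and 395 in spermatocytes, and rose (log2 fold change 2.16 ± 0.12, limma adjusted p = 8.3e-06). The rises of Dnajb9, at 0.70, and of Dnajc10, at 0.35, turned to -0.05 and -0.38 after quantile normalization. Both lost their call without spermatocyte 1, at 0.67 and 0.32 (limma adjusted p = 0.076 for each). Dnajc1 did not pass, at -0.20. Its row overlaps that of Mllt10, at 3109 to 4664 in spermatids and 51433 and 48813 in spermatocytes, so the level of Dnajc1 is uncertain.

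The promoters of Hspa5, Hsp90b1 and Dnajc3 are printed because they were the only ones among the members to hold the endoplasmic reticulum stress element searched here, CCAAT and CCACG with 9 bases between them on either strand, while their transcript changes differed. The element was found in 39 of 32851 promoters in RefSeq (0.119%) and in 3 of the 75 promoters that matched 58 of the 72 members. A match is a description of the letters and not of binding. Each sequence runs 5′ to 3′ from 250 bases before the start of the transcript to 50 after it, from RefSeq on GRCm38.p6, with the element in capitals. Hspa5 lies on the plus strand at chr2:34771840-34772139, Dnajc3 on the plus strand at chr14:118937682-118937981 and Hsp90b1 on the minus strand at chr10:86705395-86705694, where the element occurs once in each direction.
Hspa5: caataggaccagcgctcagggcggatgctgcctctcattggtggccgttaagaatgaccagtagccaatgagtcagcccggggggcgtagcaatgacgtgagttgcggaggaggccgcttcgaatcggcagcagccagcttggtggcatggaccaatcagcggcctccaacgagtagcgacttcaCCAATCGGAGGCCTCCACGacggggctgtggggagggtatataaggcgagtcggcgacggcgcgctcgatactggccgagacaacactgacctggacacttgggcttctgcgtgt
Dnajc3: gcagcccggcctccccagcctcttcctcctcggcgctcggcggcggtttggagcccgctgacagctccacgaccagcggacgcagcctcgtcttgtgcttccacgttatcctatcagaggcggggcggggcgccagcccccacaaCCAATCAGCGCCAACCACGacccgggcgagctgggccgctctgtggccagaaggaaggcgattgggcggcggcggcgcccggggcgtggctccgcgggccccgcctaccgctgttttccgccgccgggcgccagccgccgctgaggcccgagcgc
Hsp90b1: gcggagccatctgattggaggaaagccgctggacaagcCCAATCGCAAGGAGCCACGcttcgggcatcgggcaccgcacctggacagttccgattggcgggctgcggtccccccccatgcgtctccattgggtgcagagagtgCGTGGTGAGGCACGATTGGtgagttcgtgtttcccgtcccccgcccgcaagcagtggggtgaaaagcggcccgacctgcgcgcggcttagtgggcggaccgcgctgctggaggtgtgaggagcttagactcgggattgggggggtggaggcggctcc

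Mitochondrial chaperones, again 8 genes grouped after their values had been seen, had 6 rises and 1 fall on the deposited scaling, and 3 rises and 2 falls with equal library totals. Among all tested genes 40.6% rose and 36.5% fell as deposited. Hspa9, the HSP70 of the matrix, was at 32479, 31751 and 31025 in spermatids, against 23665 and 21791 in spermatocytes. Its rise (log2 fold change 0.48 ± 0.08, limma adjusted p = 0.0016) turned to -0.16 with equal library totals, and 1 near-identical copy elsewhere makes its level uncertain. Dnajc15, a J protein of the inner membrane import motor, was at 22324, 20282 and 19853 in spermatids, against 10094 and 9426 in spermatocytes, and rose (log2 fold change 1.09 ± 0.09, limma adjusted p = 4.9e-05). Dnajc19, its relative at the same motor, rose by 2.17, Dnaja3 by 1.21 and Dnajc30 by 0.95, the last with 0.31 under equal library totals. The row of Dnajc30 overlaps that of Wbscr22, at 676 to 701 in spermatids and 1797 and 1808 in spermatocytes, so the level of Dnajc30 is uncertain. The row of Dnajc19 overlaps that of Fxr1, which was at 65389.6, 40463 and 39703 in spermatids and 19042 and 17319 in spermatocytes, far above Dnajc19 and in the same order. Dnajc11, which works with the cristae organising complex, was at 856, 871 and 920.2 in spermatids, against 3115 and 2949.6 in spermatocytes, and fell (log2 fold change -1.78 ± 0.10, limma adjusted p = 7.9e-06).

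The chaperonin pair had low counts in both cell types. Hspe1, the lid of the chaperonin, was at 257, 393 and 259 in spermatids and 139 and 175 in spermatocytes, and its rise (log2 fold change 0.93 ± 0.25, limma adjusted p = 0.012) was 0.28 with equal library totals and 0.76 without spermatocyte 1, past the threshold in neither. Hspd1, the barrel, was at 68.2, 58.5 and 56.6 in spermatids and 72.2 and 88.5 in spermatocytes and did not pass (log2 fold change -0.39 ± 0.26, limma adjusted p = 0.21). Hspd1 has 3 near-identical copies elsewhere and Hspe1 has 1, and how reads matching several loci were counted is not given, so both levels are uncertain. The genes lie head to head, and their shared promoter is printed because it holds the heat shock element, GAA, TTC and GAA with 2 bases between each pair, searched on either strand, at 2 places that overlap. That element was found in 198 of 32851 promoters (0.603%) and in 6 of 75 promoters of the members, those of Hspe1, Hspd1, Hsph1 and Dnajb6. These 6 are not separate sites, since Hspe1 and Hspd1 share theirs, and Hsph1 and Dnajb6 each hold 1 site in overlapping windows. Counted by gene, the element was found for 4 of 58 members and for 179 of 27025 genes in all. The window of Hspe1 is on the plus strand of GRCm38.p6 at chr1:55087898-55088197, with both matches in capitals.
Hspe1: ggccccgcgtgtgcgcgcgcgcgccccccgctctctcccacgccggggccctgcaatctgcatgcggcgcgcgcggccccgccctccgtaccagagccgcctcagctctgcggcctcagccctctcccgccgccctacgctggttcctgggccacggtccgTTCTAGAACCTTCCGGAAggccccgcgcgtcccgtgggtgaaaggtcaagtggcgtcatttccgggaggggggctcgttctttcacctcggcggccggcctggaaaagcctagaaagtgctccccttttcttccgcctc

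Hsph1 and Dnajb6, the other genes found with the element, were at -0.15 and 0.31 on the log2 scale, and neither passed. Promoters of only 58 of the 72 members were searched, and Hsp90aa1, Hsp90ab1, Hspa8 and Dnajc5b were among those without one. The cAMP response element TGACGTCA, searched because germ cells use the activator CREM after meiosis, was in 588 of 32851 promoters (1.79%) and in 1 of the 75, that of Dnajc27, which rose by 0.65 and was at 0.00 with equal library totals.

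The makeup of a family does not depend on a scaling by 1 factor per library, since each share is taken within a library. Quantile normalization is not such a scaling, and shares were not taken under it. Per kilobase of exon, Dnaja4 made up 49.4%, 49.1% and 46.9% of the DNAJA signal in spermatids, against 2.84% and 2.31% in spermatocytes. Dnaja2 made up 39.3%, 40.3% and 42.1% in spermatids, against 85.1% and 84.8% in spermatocytes. On these counts the class consisted mostly of 1 gene in spermatocytes and of 2 genes at similar levels in spermatids. The low level of Dnaja1, whose row overlaps others, is uncertain. Hspa1l made up 31.2%, 14.6% and 14.2% of the HSP70 signal in spermatids, against 0.437% and 0.425% in spermatocytes, while Hspa2 made up 55.8%, 69.5% and 69.8% in spermatids, against 82.6% and 81.8% in spermatocytes. Spermatid 1 stood apart from the other spermatid samples in both HSP70 shares. These shares are uncertain, since the row of Hspa1l overlaps that of Gm10501 and the level of Hspa8, part of the family total, is uncertain. Hspa1a and Hspa1b, which share a row, are not in that total. In the HSP110 family Hspa4l made up 53.1 ± 2.63% (SD, n = 3) in spermatids and 40.9 ± 0.29% (SD, n = 2) in spermatocytes. Dnajb3 kept nearly the same share of the DNAJB signal, 58.3 ± 1.61% (SD, n = 3) in spermatids and 57.9 ± 0.488% (SD, n = 2) in spermatocytes. In the DNAJC class Dnajc5b made up 34.7 ± 3.66% (SD, n = 3) in spermatids and 0.889 ± 0.201% (SD, n = 2) in spermatocytes.

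**Figure D3:**
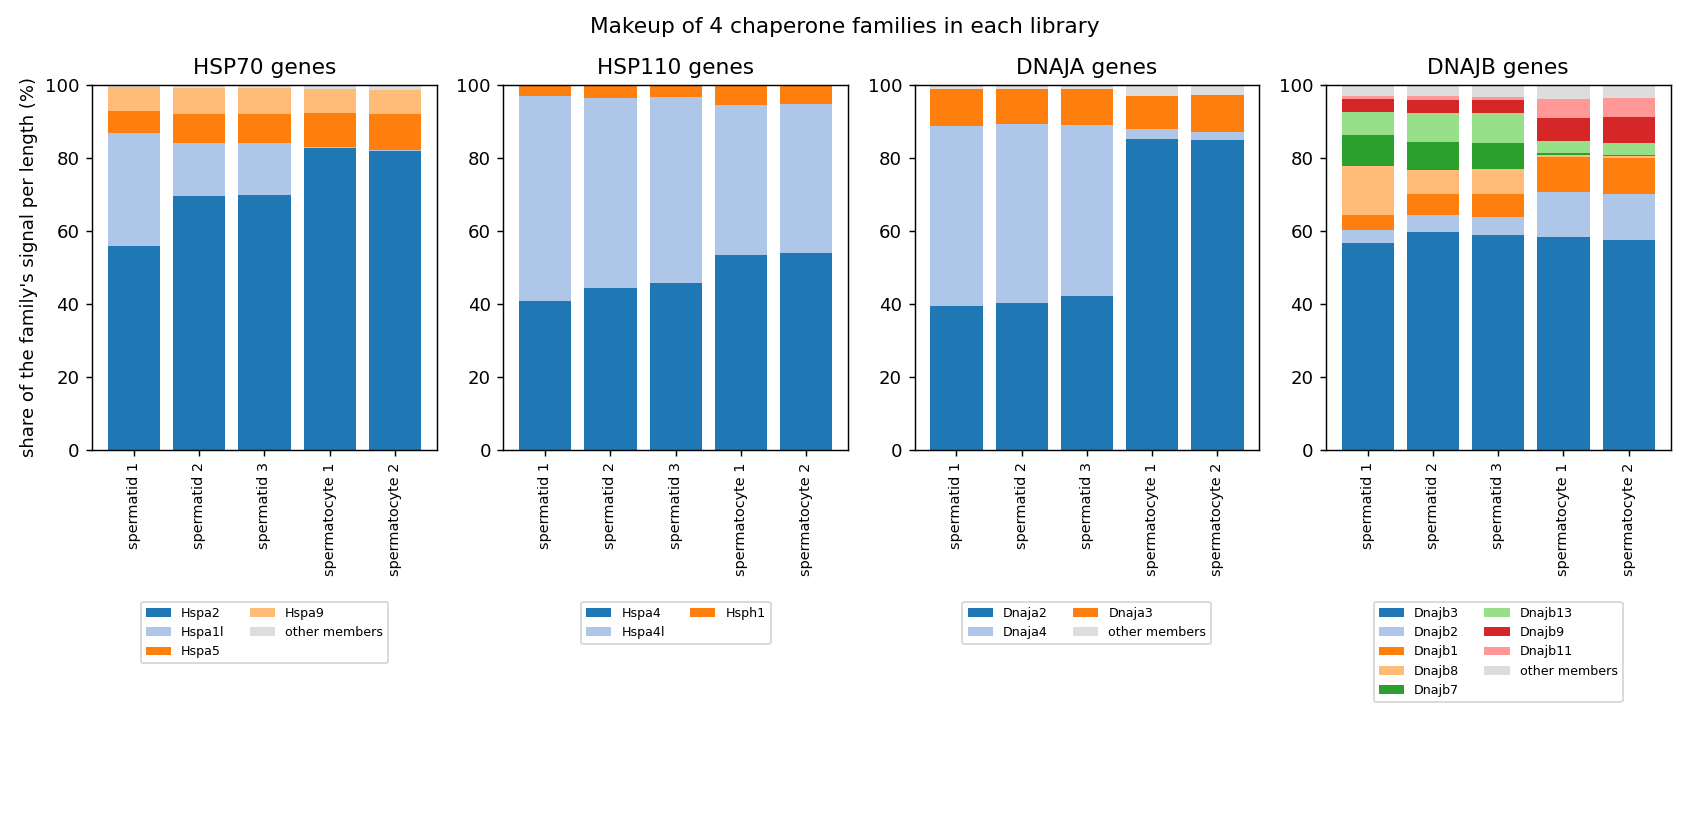
Share of the signal per kilobase of exon, in percent, that each gene takes within the HSP70, HSP110, DNAJA and DNAJB genes, with 1 stacked bar per library, the 3 spermatid libraries on the left and the 2 spermatocyte libraries on the right of each panel. Dnaja4 goes with the cell type most plainly, with 46.9% to 49.4% in spermatids and 2.31% to 2.84% in spermatocytes, and Dnajb3 holds 56.5% to 59.6% in all 5 libraries.

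Ranked by normalized count per kilobase of exon, the same 3 genes led in both cell types. In spermatids Dnajb3 was at 86708 per kilobase, Hspb9 at 73849 and Hspa2 at 68091. In spermatocytes Hspa2 was at 64945, Hspb9 at 54205 and Dnajb3 at 27311. Hspb9 was above Hspa2 only in spermatid 1, at 90517 against 64311, and below it in spermatid 2, at 67373 against 71009.6, and in spermatid 3, at 63658 against 68953. Hspa1l came next in the spermatid means at 21630.0 per kilobase, and Hsp90b1 next in spermatocytes at 20856.

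Intronless genes were 7 of the 71, namely Dnajb3, Dnajb7, Dnajb8, Dnajc30, Hspa2, Hspb3 and Hspb9. Of these 5 rose and 0 fell, while of all 517 tested single-exon genes with an annotation 53.4% rose and 26.1% fell. Members with several exons had 46.9% rises and 23.4% falls, against 44.0% and 32.4% for all tested genes of that kind.

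Spermatid 1 was the highest of the 3 spermatid samples for 42 of the 71 (59.2%), against 40.2% of all tested genes. The median log2 ratio of spermatid 1 to the mean of the other spermatid samples was 0.14 for the members, 0.01 for all tested genes, 0.28 for the spermatocyte markers and 1.45 for the spermatid markers. Spermatocytes held 1.19% to 2.41% of the spermatid level for Dnajc5b, Dnajb7, Hspa1l, Dnajb8 and Dnaja4, and 1.06% to 2.58% for the 9 spermatid markers. The ranges overlap, and the part of spermatids left in the spermatocyte fraction was not tested.

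Scaling moved the balance of the small changes. Over all tested genes the median log2 fold change of 0.07 in the deposited values became 0.10 under TMM factors, -0.57 under equal library totals and -0.39 under quantile normalization. The counts of members that were higher and lower were 22 and 34 with equal library totals, against 35 and 15 as deposited. Among all tested genes 52.6% of the calls were higher as deposited, 38.1% with equal library totals and 42.0% after quantile normalization. By family, equal library totals gave 7 higher and 3 lower DNAJB genes, 7 and 15 DNAJC genes, 3 and 5 HSP70 genes and 1 and 3 small heat shock genes. Of the 35 rises 22 kept their call in every alternative in which they were tested, among them Hspa1l, Hspa12b, Hspa13, Hspa4l, Hspb8, Dnaja4 and Dnajc5b. Of the 15 falls 13 did, the exceptions being Dnajc17 and Hspb11. Hspb8 and Dnajc22 were not tested with a mean of at least 100, and members that overlap another row could only be left out of the counts.

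**Figure D4:**
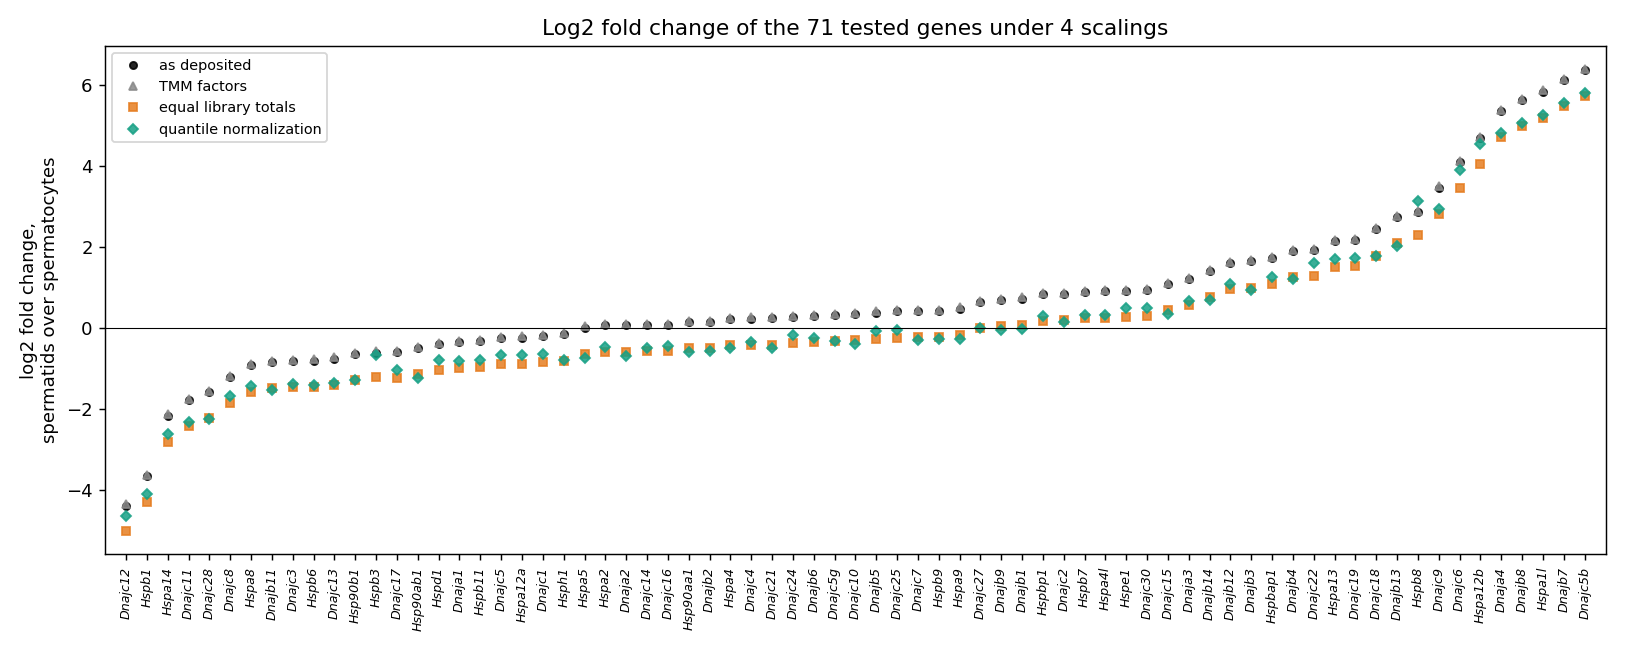
Log2 fold change, spermatids over spermatocytes, of the 71 tested genes under the deposited scaling (black), TMM factors (grey), equal library totals (orange) and quantile normalization (green), with genes ordered by the deposited value. Equal totals and quantile normalization lie below the deposited values for nearly all genes, so genes a little above 0 turn negative, while genes above 2 or below 0 keep their sign.

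Heat shock factors, which include the transcription factors that drive heat shock genes, were listed together with Hsf2bp and Hsbp1, named for binding them. Of these 8 genes 6 were tested. As deposited 4 were higher (66.7%) and 1 lower (16.7%), against 40.6% and 36.5% of all tested genes. With equal library totals 2 were higher and 3 lower. Hsfy2, a testis relative of the heat shock factors, was at 19344, 20437 and 17474 in spermatids, against 315 and 168 in spermatocytes, and rose by 6.36 ± 0.25 on the log2 scale (limma adjusted p = 1.5e-06). Hsf2, a factor active in the testis without heat, was at 7433, 7424 and 7457 in spermatids, against 466 and 461 in spermatocytes, and rose by 4.0 ± 0.09 on the log2 scale (limma adjusted p = 3.7e-07). All spermatid samples lay far above both spermatocyte samples for these genes. Hsf5, a germ cell member, was at 50021, 39038 and 42442 in spermatids and 31555 and 30477 in spermatocytes, and its rise (log2 fold change 0.49 ± 0.12, limma adjusted p = 0.0079) turned to -0.15 with equal library totals. Hsf1, the factor of the heat response, was at 2443, 2677 and 2656 in spermatids and 2198 and 2146 in spermatocytes, and its rise (log2 fold change 0.25 ± 0.10, limma adjusted p = 0.045) turned to -0.39 with equal library totals and missed the threshold without either spermatocyte sample. Hsf2bp, a recombination protein named for binding Hsf2, fell to 5099, 5171 and 5071 in spermatids, against 7857 and 7641 in spermatocytes (log2 fold change -0.60 ± 0.08, limma adjusted p = 0.00046). Hsbp1, which binds and restrains Hsf1, did not pass, at 0.17. Hsf3 and Hsf4 were under the filter, with at most 9.91 and 4.19 in any sample.

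Co-chaperones of HSP70 and HSP90 had 13 of 38 rows higher (34.2%) and 14 lower (36.8%), against 40.6% and 36.5% of all tested genes. With equal library totals, where all tested genes had 30.5% and 49.4%, the list had 4 higher and 25 lower. The 3 most abundant were Bag6, Bag5 and Fkbp4. Bag6, a guard of newly made membrane proteins that mouse spermatocytes need, was at 194747, 198791 and 199983 in spermatids, against 109315 and 109363 in spermatocytes, and rose (log2 fold change 0.86 ± 0.08, limma adjusted p = 8.7e-05), although with equal library totals its value was 0.21 and did not pass. Bag5, an exchange factor of HSP70, was at 123589, 102759.5 and 94839 in spermatids, against 32764 and 29309 in spermatocytes, and rose (log2 fold change 1.78 ± 0.13, limma adjusted p = 2.6e-05). Fkbp4, a partner of HSP90, did not pass, at 0.10. Hyou1, the HSP110 of the endoplasmic reticulum, was chosen after its values were seen, and it was at 4933, 4857 and 4409 in spermatids, against 32201 and 31302 in spermatocytes (log2 fold change -2.75 ± 0.09, limma adjusted p = 8.3e-07). That fall was larger than that of any member of the same compartment.

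Genes of the unfolded protein response had 8 of 27 tested rows higher (29.6%) and 9 lower (33.3%), and 4 and 17 with equal library totals. All tested genes had 40.6% and 36.5% as deposited, and 30.5% and 49.4% with equal library totals. Calr and Pdia3, which fold glycoproteins together, did not pass, at 0.10 and 0.08, and both were lower with equal library totals, at -0.55 and -0.57. Creld2, a stress-induced gene, was at 38233, 44879 and 39594 in spermatids, against 11209.8 and 10023 in spermatocytes, and rose (log2 fold change 1.94 ± 0.11, limma adjusted p = 6.5e-06). Immediate early genes, which respond quickly to handling and stress of cells, had 11 of 19 higher (57.9%) and 3 lower (15.8%). With equal library totals these counts were 8 and 4. Klf4 was at 21151, 25922 and 23609 in spermatids, against 541 and 469 in spermatocytes, and rose by 5.54 ± 0.12 on the log2 scale (limma adjusted p = 3.7e-07), Nr4a1 rose by 5.31 and Jund by 2.82. These 3 were the most abundant of their list by the mean over the 5 samples, a ranking that favours genes high in spermatids because 3 of the samples are spermatids. The highest spermatocyte means of the list were those of Jun at 3197, Fosb at 2706 and Egr1 at 2586. Of these Jun fell, at -0.90, Fosb did not pass, at 0.46, and Egr1 rose by 0.51. The part of cell handling in the chaperone values was not tested.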

How the data were processed

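The deposited values are a normalized signal, 1 per gene and sample: the authors scaled gene counts by library size factors in DESeq, per the file headers and per the submitters' processing notes. Beside DESeq those notes list STAR 2.4.0, SAMtools, Picard and FastQC, with the build mm10. How reads were counted, on which strand and with what treatment of several matching loci, is not given in the sources used here. Reads of genes that overlap therefore cannot be told apart, which touches 38 of the 72 members.

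Within 0.001, 100% of the values in each column were whole multiples of 1 read, so division gave back whole reads. Groups came from the cell type labels, and numbering within a group follows accession order, so spermatid 3 is the sample titled S4. These numbers pair no samples. The test was limma 3.58.1 (R 4.3.3) on log2(value + 1) for genes with a mean of at least 10, using a trended eBayes prior and Benjamini-Hochberg adjustment at 0.05 over the whole table. This scale understates the change of low genes. With the same size factors on the recovered reads, edgeR 4.0.16 (quasi-likelihood) called 11537 genes higher and 10394 lower, and DESeq2 1.42.0 called 11515 and 10244, against 11512 and 10359 with limma. The limma step was tested on simulated counts.

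The members and lists were chosen with earlier results of these data known. The text names every Hsp gene. Of the Dnaj genes it names the 8 that rose most and the 8 that fell most among calls with at least 100 in the higher group's mean, and the 8 most abundant. Every heat shock factor and the 3 most abundant genes of each other list are named too. Further genes are named as relatives or partners of these and were chosen after their values were seen. Exon lengths and near-identical copies (90% identity over 50% of the longest coding transcript, BLAST 2.17.0) came from GENCODE vM21 on GRCm38, the assembly of mm10. Promoters came from RefSeq on GRCm38.p6. Alternatives were other pseudocounts, filters, scalings, variance settings and tests, leaving out each replicate, and leaving out overlapping members. Summaries used Python 3.11.15, pandas 2.3.3 and numpy 2.4.6, and plots matplotlib 3.10.9.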

Additional observations from a re-analysis of the deposited data

How the results depend on the processing

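With equal library totals 22 members were higher and 34 lower (Hsp genes 6 and 14, Dnaj genes 16 and 20), and after quantile normalization 23 and 34 (Hsp genes 6 and 15, Dnaj genes 17 and 19), against 35 and 15 as deposited. Leaving out the members that overlap another row gave 15 and 7 (Hsp genes 6 and 5, Dnaj genes 9 and 2), by construction from fewer genes. Leaving out 1 replicate gave 29 to 34 members higher and 13 to 16 lower, with 8 to 10 Hsp genes higher and 6 to 7 lower, and 21 to 24 Dnaj genes higher and 7 to 9 lower. Over the tools edgeR and DESeq2 35 members were higher and 15 and 16 lower. TMM factors gave 37 and 14, no filter on low values 32 and 14, a mean of at least 100, which left 67 members tested, 33 and 16, and no variance trend 30 and 14.

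Log2 fold changes that turned negative under equal library totals were -0.58 for Dnaja2, -0.49 for Dnajb2, -0.26 for Dnajb5, -0.34 for Dnajb6, -0.29 for Dnajc10, -0.56 for Dnajc14, -0.56 for Dnajc16, -0.40 for Dnajc21, -0.37 for Dnajc24, -0.23 for Dnajc25, -0.41 for Dnajc4, -0.32 for Dnajc5g, -0.22 for Dnajc7, -0.50 for Hsp90aa1, -0.58 for Hspa2, -0.41 for Hspa4, -0.63 for Hspa5, -0.16 for Hspa9, -0.22 for Hspb9, -0.55 for Calr, -0.55 for Fkbp4, -0.48 for Hsbp1, -0.39 for Hsf1, -0.15 for Hsf5 and -0.57 for Pdia3. After quantile normalization they were -0.68 for Dnaja2, -0.027 for Dnajb1, -0.57 for Dnajb2, -0.071 for Dnajb5, -0.23 for Dnajb6, -0.053 for Dnajb9, -0.38 for Dnajc10, -0.48 for Dnajc14, -0.43 for Dnajc16, -0.50 for Dnajc21, -0.16 for Dnajc24, -0.038 for Dnajc25, -0.34 for Dnajc4, -0.30 for Dnajc5g, -0.30 for Dnajc7, -0.59 for Hsp90aa1, -0.45 for Hspa2, -0.49 for Hspa4, -0.72 for Hspa5, -0.25 for Hspa9, -0.27 for Hspb9, -0.58 for Calr, -0.61 for Fkbp4, -0.55 for Hsbp1, -0.28 for Hsf1, -0.25 for Hsf5 and -0.65 for Pdia3, and Dnajc27 was just under 0, at -0.0041. Both scalings lower the median of all genes, and equal totals lower each member by nearly the same amount while quantile normalization does not. Which scaling is nearer to the RNA of a cell was not tested. No paired analysis was possible because the sample titles of the groups share no replicate number. With 3 and 2 samples, small changes near the threshold depend on single libraries. Reads of Hspb2, Hspb3 and Hspb8 were few, so their values rest on small counts. The lower group also had few reads for Dnajc12, with 10, 28 and 12 in spermatids. The same holds for Hspa12b, with 21 and 15 in spermatocytes, and for Dnajc6, with 16 and 35 there.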

Other observations

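The heat-inducible HSP70 genes Hspa1a and Hspa1b share 1 row of the table and so were not among the members. The row was at 346, 307 and 314 in spermatids, against 108 and 127 in spermatocytes. The samples of the groups did not overlap, and the row was higher in spermatids by 1.45 ± 0.18 on the log2 scale (limma adjusted p = 0.00027).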
